A study of Mus musculus with 15 samples.

Results

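The FOS family holds 4 genes, Fos, Fosb, Fosl1 and Fosl2, whose proteins pair with JUN proteins to form the transcription factor AP-1. The 4 were taken as a named family, with earlier results of these data known, and all 4 are among the 8059 genes of the deposited count table. They were followed in bulk RNA-seq of mouse skeletal muscle stem cells, the Pax7-expressing satellite cells that lie beside the muscle fibre. The tissue was either intact (T0) or dissociated with collagenase and dispase (T15, T30, T60, T90 and T120), and cells of all 6 time points were fixed with PFA. No other treatment, genotype or age is given for these 6 groups. The time labels carry no unit and were read as minutes of dissociation. For T30 and T90 the table has 3 libraries each, and for the other 4 time points it has 4, named here by time and by the letter in the table's header (A, B, C, D). Nothing in the labels says whether the libraries of a time point came from separate animals, so the p-values below measure the spread between these libraries. In bulk RNA, fewer cells with a transcript and less transcript per cell cannot be told apart. The comparisons ask when each gene was first raised, when it was highest and when it declined.

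The protein of Fos does not form stable pairs with itself. FOS proteins bind DNA as partners of JUN proteins through a leucine zipper, mostly at AP-1 sites (TGANTCA). Fos and Fosb are classical immediate early genes: their transcription starts without new protein synthesis, through serum response factor with its ternary complex partners and through CREB, and their mRNAs are short-lived. FOS and full-length FOSB carry strong transactivation domains, which FRA-1 (Fosl1) and FRA-2 (Fosl2) lack. Fosl1 is itself a known AP-1 target gene and is described as a delayed member in cultured cells given serum. Splicing of Fosb also yields the truncated ΔFosB, and counts per gene do not separate it from the full-length form.

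On GRCm38 (GENCODE vM21) Fos (ENSMUSG00000021250) lies at chr12:85473890-85477273 on the plus strand and Fosb (ENSMUSG00000003545) at chr7:19302696-19310051 on the minus strand. Fosl1 (ENSMUSG00000024912) lies at chr19:5447547-5455946 and Fosl2 (ENSMUSG00000029135) at chr5:32135801-32157842, both on the plus strand. All 4 are protein coding, and their joined exons measure 2.35 kb (Fos), 6.24 kb (Fosb), 2.03 kb (Fosl1) and 9.68 kb (Fosl2). Exons of Fosl1 share 1163 bases with Ccdc85b on the opposite strand, a gene that is not listed in the table. The libraries were made with a stranded kit, but the sources used here do not say whether counting used strand, so reads of Ccdc85b may be part of the Fosl1 counts.

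The promoter stretches are shown because Fos and Fosb were the first members to respond. They are the 120 bases before the start site in RefSeq (GRCm38.p6), which gave 3 of the 4 members, and capitals mark TGACG, the core of a cyclic AMP response element. The RefSeq start of Fosl2 lies inside the gene as GENCODE draws it.
Fos, chr12:85473770-85473889, plus strand: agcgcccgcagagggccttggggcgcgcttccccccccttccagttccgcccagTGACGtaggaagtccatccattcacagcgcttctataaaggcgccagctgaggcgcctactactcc
Fosb, chr7:19310046-19310165, minus strand: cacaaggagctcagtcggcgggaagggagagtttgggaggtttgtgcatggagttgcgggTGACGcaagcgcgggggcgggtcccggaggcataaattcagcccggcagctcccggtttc
Fosl2, chr5:32136352-32136471, plus strand: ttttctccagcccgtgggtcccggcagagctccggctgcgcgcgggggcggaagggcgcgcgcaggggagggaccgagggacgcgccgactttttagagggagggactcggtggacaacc

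Searched on both strands, TGACG lay 66 to 62 bases before the start in Fos and 60 to 56 bases before it in Fosb, and TATAA lay 33 to 29 bases before the start in Fos. None of the 3 windows held TGANTCA or the CArG box bound by serum response factor, which says only that these letters are absent from these windows. Of 32851 RefSeq promoter windows of the same length, 11.7% held TGACG, 11.8% TATAA, 3.41% TGANTCA and 0.749% a CArG box. TGACG and TGANTCA begin with the same letters, and no window here held both.

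AU-rich elements in the 3′ UTR are known to speed mRNA decay, and 1 stretch of 29 bases of each member is shown. Decay of mRNA was not measured, and a link of these letters to the declines below was not tested. Capitals mark the only nonamer TTATTTATT of Fos and of Fosl2 and the only pentamer ATTTA of Fosb and of Fosl1. The Fosl2 stretch also opens with a pentamer left in lower case. In the Fos stretch a further pentamer starts in lower case and runs into the capitals.
Fos: tgttttcaatTTATTTATTaagatggatt
Fosb: ccacccccagctATTTAtccctttcctgg
Fosl1: agggcagctgctATTTAttttcctaaaga
Fosl2: atttattttaTTATTTATTttaaatgttt

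The Fos 3′ UTR held 4 pentamers in 815 bases, or 4.91 per kb, and 6.63% of 7621 listed genes with a 3′ UTR had as many per kb or more. Fosl2 had 8 pentamers in 4653 bases (1.72 per kb), Fosl1 had 1 in 638 bases (1.57 per kb) and Fosb had 1 in 2145 bases (0.47 per kb), against a median of 1.41 per kb over those genes. The nonamer, which contains the pentamer, was found once each in Fos and Fosl2 and in 7.95% of the listed genes. These are matches of letters on the sense strand of the transcript with the longest coding part, not measured sites.

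Summed over listed genes, libraries from T60 on held 8647622 to 27826437 counts and earlier ones 2974294 to 10482407. A background of reads spread over long genes was higher up to T30. Taken as the median over 10 long genes, it was 0.993 to 3.31 CPM per kb in the libraries of T0, 0.363 to 2.93 in those of T15 and 0.967 to 4.86 in those of T30, and 0.0592 to 0.736 in all later libraries. The 10 genes were picked as nearly silent from T60 on, so part of that drop is built in. All 10 satellite cell markers were listed, with a sum of 4457 to 7206 CPM in every library. Behind that sum, 3 of the 10 were called up and 5 down at T120 against T0, where 76.8% of all genes were called. Pax7 stood at 378 ± 80.8 CPM at T120, against 1344 ± 203 CPM at T0 (SD, n = 4 each; log2 fold change -1.83 ± 0.16; adjusted p = 2.54e-09), and Sdc4 at 2528 ± 336 CPM, against 421 ± 54.1 CPM at T0 (2.59 ± 0.18; adjusted p = 9.87e-11). The 6 myofibre markers listed of 7 summed to 170 to 404 CPM per library from T60 on, against 385 to 979 CPM up to T30. They did not move alike, with 2 called up and 3 down at T120 against T0. Ttn, the highest of them, stood at 356 CPM at T0 and 170 CPM at T120 (log2 fold change -1.07). Acta1 stood at 8.29 CPM at T0 and 36.2 CPM at T120 (2.14). The 6 endothelial markers listed of 8 summed to 413 to 711 CPM at T120, against 279 to 413 CPM at T0. Of these, 5 were called up and Cd34 was called down (-0.69; adjusted p = 5.09e-05). The 5 smooth muscle and pericyte markers listed of 6 summed to 452 to 640 CPM at T120 and 186 to 294 CPM at T0. Of 8 immune markers 1 was listed (Cd68, at 20.9 to 50.5 CPM at T30 and 9.44 to 11.9 CPM at T0), 3 of 5 fibro-adipogenic markers were listed, and no glial, tenocyte or erythroid marker was. The part of background and of other cells in the results was not tested.

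Each member changed over the course (joint edgeR quasi-likelihood test over the 5 later time points, adjusted p between 1.39e-12 for Fosl2 and 1.34e-11 for Fos, in a table where 85.7% of genes were called by this test). Fos and Fosb were raised by T15, Fosl2 by T30 and Fosl1 by T60. Their highest means stood at T30 for Fos, T60 for Fosb, T90 for Fosl2 and T120 for Fosl1. For each member the edgeR test did not separate the highest time point from at least 1 neighbour. At T60 against T30 the edgeR adjusted p was 0.504 for Fos and 0.237 for Fosb. For Fosl2 it was 0.907 at T90 against T60, and for Fosl1 0.192 at T120 against T90. Fos, Fosb and Fosl2 were lower at T120 than at T60, and Fosl1 was higher.

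**Figure D1:**
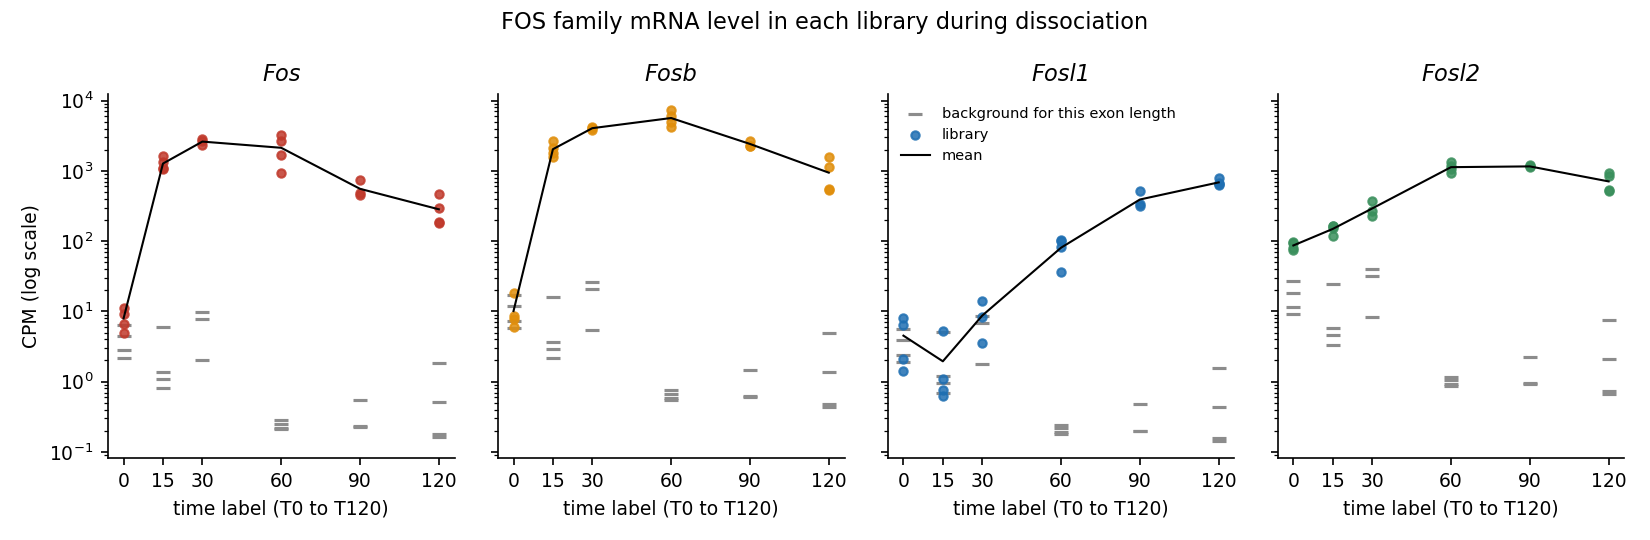
Level of each FOS family gene in CPM (log axis) against the time label, with 1 point per library, a line through the means and grey dashes for the background expected for that exon length in each library. Fos and Fosb stand far above the background from T15 on, Fosl2 climbs until T60, and Fosl1 stays near the background until T30.

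Fos encodes c-FOS, the founding member. In CPM, which are counts relative to the TMM-scaled library total, Fos had 9.03, 4.87, 11.2 and 6.65 at T0 (libraries A to D), 1342, 1086, 1602 and 1050 at T15, and 2808, 2332 and 2680 at T30. It had 2678, 1707, 3205 and 921 at T60, 476, 737 and 451 at T90, and 472, 180, 296 and 186 at T120. Every library from T15 on lay above every T0 library, and the widest range was that of T60, where library D lay below all T15 libraries and library C above all T30 libraries.

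The log2 fold change of Fos at T15 against T0 was 7.36 ± 0.44 (SE; edgeR with Benjamini-Hochberg adjusted p = 2.48e-10), a fitted fold of 164 and second to Fosb among 8059 genes. The T0 level was 1.73 to 2.38 times the background for its exon length. With the background subtracted the log2 fold change was 8.21. T30 against T15 gave 1.04 ± 0.35, which did not pass the test (adjusted p = 0.0849), nor did T60 against T30 (-0.29 ± 0.35; adjusted p = 0.504). With the background subtracted both passed, at 1.47 (adjusted p = 0.0147) and -0.90 (adjusted p = 0.0492). Subtraction took Fos in library 30A only from 12684 to 12640 counts, but library totals and TMM factors were computed anew after it.

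The decline of Fos was called at T90 against T60 (-1.94 ± 0.37; adjusted p = 0.000753). The further difference of T120 against T90 was -0.97 ± 0.35 (adjusted p = 0.0495), with ranges that overlap, and this call was lost without any 1 of 90A, 90B, 90C, 120B, 120C and 120D. With the library letter as a block the value was -0.93 (adjusted p = 0.034) over all libraries and -0.78 (adjusted p = 0.0871) over those of T30 to T120. Against T60, T120 was lower by a log2 fold change of -2.91 ± 0.35 (adjusted p = 8.01e-07), the third lowest of all listed genes. At T120 the mean was 10.9% of the T30 mean, at 283 ± 136 CPM (SD, n = 4), against 7.93 ± 2.75 CPM at T0 (SD, n = 4), and the difference from T0 was still called (5.20 ± 0.41; adjusted p = 3.91e-10). In order of mean level the time points were T0, T120, T90, T15, T60 and T30. Of these neighbours, T120 and T90, T15 and T60, and T60 and T30 overlapped in their libraries.

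Fosb encodes FOSB, the closest relative of c-FOS in structure. Fosb had 8.47, 5.91, 18.2 and 7.82 CPM at T0, 2101, 1776, 2689 and 1559 CPM at T15, and 4215, 3795 and 4130 CPM at T30. It had 7326, 4891, 6098 and 4260 CPM at T60, 2269, 2701 and 2272 CPM at T90, and 1558, 534, 1126 and 549 CPM at T120. All T60 libraries stood above all T30 libraries, and the 4 T120 libraries fell into a higher pair (A and C) and a lower pair (B and D), as they did for Fos.

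At T15 against T0 Fosb had a log2 fold change of 7.71 ± 0.42 (adjusted p = 7.20e-11), a fitted fold of 209 and the highest of all listed genes there, as also at T30, T60 and T90. Its T0 counts were 45, 34, 65 and 87, at 0.710 to 1.06 times the background for its exon length, so the T0 level was not detectable above the background. With the background subtracted the fitted log2 fold change at T15 was 12.3, a value that depends on the prior count and is no bound. T30 against T15 gave 0.99 ± 0.33 (adjusted p = 0.0795) and T60 against T30 gave 0.48 ± 0.33 (adjusted p = 0.237), and neither passed the test. After background subtraction T30 against T15 passed at 1.44 (adjusted p = 0.0122) and the T60 against T30 value turned to -0.13 (adjusted p = 0.778). Subtraction took Fosb in library 30A only from 19039 to 18921 counts, and totals and TMM factors were computed anew as for Fos. With the library letter as a block T60 against T30 gave 0.59 (adjusted p = 0.076) over all libraries and 0.61 (adjusted p = 0.0487) over those of T30 to T120.

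Fosb fell at T90 against T60 (-1.23 ± 0.34; adjusted p = 0.0104) and at T120 against T90 (-1.36 ± 0.33; adjusted p = 0.00634). Its mean at T120 was 942 ± 495 CPM (SD, n = 4), 16.7% of the T60 mean and above T0 by 6.60 ± 0.40 (adjusted p = 1.05e-11). From T0 up, the order of mean levels was T0, T120, T15, T90, T30 and T60, of which T15 and T90 overlapped in their libraries.

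Fosl2 encodes FRA-2 and was the one member with a level well above background in intact muscle, at 3.01 to 10.5 times the background in the T0 libraries. Its levels were 73.6, 95.5, 80.2 and 97.6 CPM at T0, 163, 164, 153 and 117 CPM at T15, and 378, 228 and 268 CPM at T30. They were 1340, 1066, 944 and 1162 CPM at T60, 1153, 1199 and 1118 CPM at T90, and 930, 537, 849 and 512 CPM at T120. The libraries of T0, T15, T30 and T60 formed 4 ranges without overlap, those of T60 and T90 overlapped, and those of T120 lay below both.

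At T15 Fosl2 had a log2 fold change of 0.78 ± 0.19 against T0 that missed the threshold (adjusted p = 0.0718). DESeq2 gave 0.79 with an adjusted p of 0.00437, and without library 15D edgeR gave 0.86 (adjusted p = 0.0395). The steps to T30 (0.96 ± 0.20; adjusted p = 0.00764) and to T60 (1.95 ± 0.22; adjusted p = 5.98e-07) were both called upward, the first of them not without library 30A (0.75; adjusted p = 0.0852).

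T90 and T60 differed by 0.04 ± 0.20 (adjusted p = 0.907), with means of 1157 ± 40.6 CPM at T90 (SD, n = 3) and 1128 ± 167 CPM at T60 (SD, n = 4). At T120 Fosl2 was lower than at T90 (-0.71 ± 0.20; adjusted p = 0.0157), a call lost without 90B (-0.67), 120B (-0.59) or 120D (-0.56), and lower than at T60 (-0.67 ± 0.19; adjusted p = 0.00401). The T120 mean of 707 ± 213 CPM (SD, n = 4) was 61.1% of the highest mean.

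Fosl1 encodes FRA-1. Fosl1 had 8.09, 2.09, 6.43 and 1.44 CPM at T0, 1.08, 0.632, 0.750 and 5.325 CPM at T15, and 14.2, 8.40 and 3.55 CPM at T30. It had 81.6, 102, 35.8 and 103 CPM at T60, 522, 313 and 336 CPM at T90, and 788, 629, 656 and 666 CPM at T120. The ranges of T0, T15 and T30 overlapped, and T60, T90 and T120 formed 3 ranges without overlap, each above the one before.

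At T0, T15 and T30 Fosl1 was at 0.596 to 2.08 times the background for its exon length, and from T60 on at 198 times or more. Against T0 it had -1.29 ± 0.70 at T15 (adjusted p = 0.999), which was the lowest value of all listed genes and not called, and 1.00 ± 0.62 at T30 (adjusted p = 0.398). T30 against T15 gave 2.29 ± 0.67 (adjusted p = 0.0541). That value was called without 15D (3.36; adjusted p = 0.0041), the T15 library of highest background, and without 30C (2.78; adjusted p = 0.0171). Without any other 1 library of T15 or T30 it was not called, and it was lowest without 30A (1.76; adjusted p = 0.326).

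The rise of Fosl1 was called at T60 against T30 (3.31 ± 0.55; adjusted p = 5.46e-05) and at T90 against T60 (2.28 ± 0.44; adjusted p = 0.000774). T120 against T90 gave 0.81 ± 0.44 and did not pass (adjusted p = 0.192), although the ranges did not overlap. The mean was 685 ± 70.8 CPM at T120, against 4.51 ± 3.26 CPM at T0 (SD, n = 4 each). The log2 fold change was 7.40 ± 0.57 (adjusted p = 3.16e-10), a fitted fold of 169 and the highest of all listed genes at that time, followed by Fosb, and with the background subtracted it was 9.06.

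Set against the whole table, 2 of the 4 members were called at T15 against T0, where 0.67% of listed genes were called in either direction, and 3 of 4 at T30, where 5% were. All 4 were called up at T60, T90 and T120, where 56.2%, 68.8% and 76.8% of genes were called. These 5 comparisons share the T0 libraries. The log2 fold changes at T60 were 8.10 ± 0.46 for Fos, 9.18 ± 0.44 for Fosb, 4.32 ± 0.53 for Fosl1 and 3.70 ± 0.21 for Fosl2, against a median of -0.03 over all genes. Of the members, 1 was called at T30 against T15 (background 4.89% of genes), 2 at T60 against T30 (51%), 3 at T90 against T60 (30.3%) and 3 at T120 against T90 (23%). All 4 were called at T120 against T60 (60.4%), Fosl1 up by 3.09 ± 0.43 (adjusted p = 5.16e-06) and the other 3 down.

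**Figure D2:**
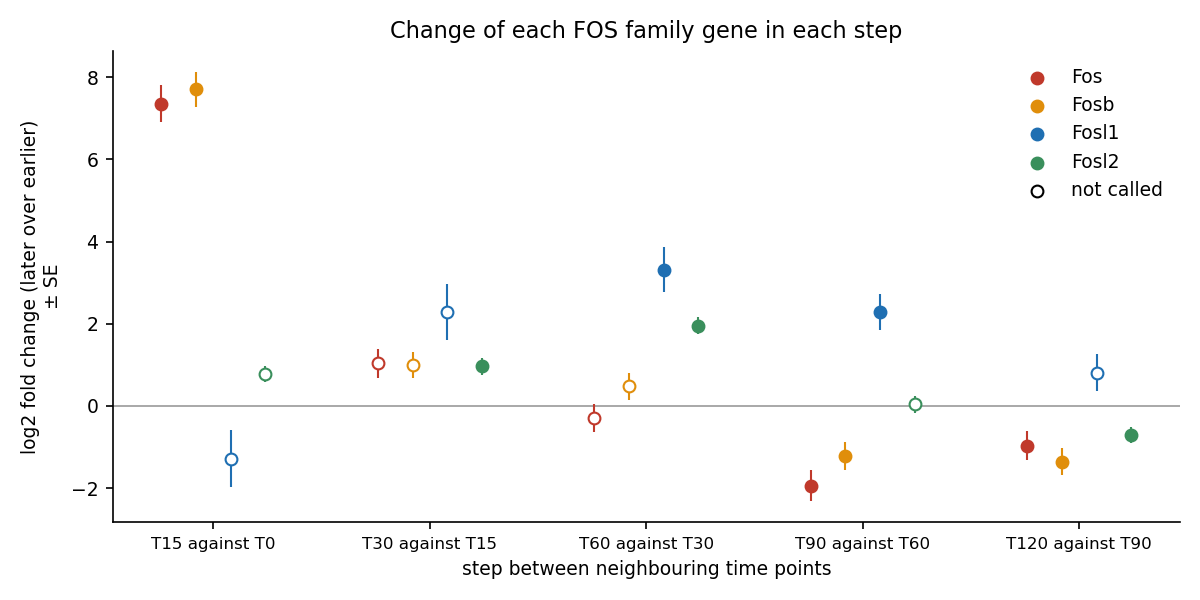
Log2 fold change of each FOS family gene between neighbouring time points, later over earlier, with bars of 1 standard error and open symbols where the adjusted p was 0.05 or more. Fos and Fosb change most between T0 and T15, Fosl1 and Fosl2 between T30 and T60, and at T90 against T60 Fosl1 is up while Fos and Fosb are down.

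Levels of different genes were compared per kb of exon. Per kb, Fosl2 was the highest member at T0, at 8.96 ± 1.21 CPM per kb, against 3.37 ± 1.17 for Fos, 2.22 ± 1.60 for Fosl1 and 1.62 ± 0.879 for Fosb (SD, n = 4). It held 56.8% ± 14.5 of the reads per kb of the 4 genes there. With the background subtracted the T0 share of Fosl2 was 74.75% ± 13.62 and that of Fosb 0.719% ± 1.035 (SD, n = 4). At T15 Fos held 61.3% ± 1.14 and Fosb 36.8% ± 1.30 (SD, n = 4), and at T30 the shares were 61.8% ± 0.789 and 36.3% ± 1.06 (SD, n = 3). Fosl2 then held 1.78% at T15 and 1.67% at T30, although its own level at T30 was above that at T0 (1.75 ± 0.20 on the log2 scale; adjusted p = 5.23e-06).

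The make-up then moved toward the FRA genes. The share of Fos was 44.0% ± 9.89 at T60, 25.0% ± 4.91 at T90 and 17.0% ± 3.30 at T120, and that of Fosb was 47.2% ± 6.14, 41.5% ± 2.56 and 21.1% ± 5.70 at these times. Fosl1 held 2.35% ± 1.48 at T60, 20.7% ± 6.17 at T90 and 51.3% ± 9.35 at T120, with 41.5% to 59.8% in the 4 T120 libraries (SD, n = 4 at T60 and T120, n = 3 at T90). Fosl2 held 6.44% at T60, 12.9% at T90 and 10.7% at T120. The order of Fos and Fosb up to T30 rests on the exon length used, since without division by length Fos held 37.5% at T30 and Fosb 58.3%. The place of Fosl1 at T120 rests on it too, since without division by length Fosl1 held 27.9% there, against 34.3% for Fosb, 27.3% for Fosl2 and 10.5% for Fos. Fosl2 without length held 13.2% at T60 and 25.7% at T90.

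**Figure D3:**
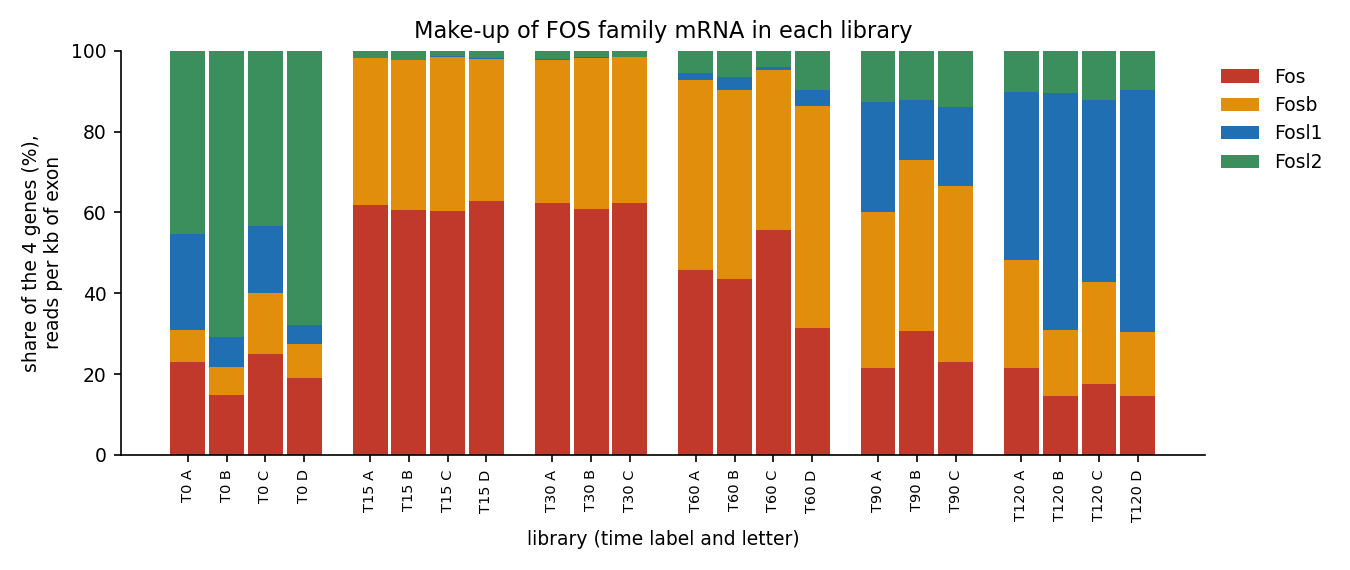
Share of each FOS family gene in the reads per kb of exon of the 4 genes (%), 1 bar per library in order of time. Fosl2 is the largest part at T0, Fos and Fosb make up nearly all of the bar at T15 and T30, and per kb Fosl1 is the largest part in all 4 libraries at T120.

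The ratio of the counts of 2 members within a library needs no scaling factor, and a change in it says that the members changed by different amounts. Fosb over Fos was 1.57, 1.64, 1.68 and 1.49 at T15 and 1.501, 1.63 and 1.54 at T30, so these 7 libraries lay within a narrow band. It was 2.74, 2.87, 1.90 and 4.63 at T60, 4.77, 3.66 and 5.04 at T90, and 3.31, 2.96, 3.81 and 2.95 at T120. Every library from T60 on lay above every library of T15 and T30. At T0 it was 0.938, 1.21, 1.62 and 1.17, from counts near the background.

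Over the 5 neighbouring steps and 6 pairs of members, 30 exact two-sided permutation tests gave no adjusted p under 0.05, the lowest being 0.0902. A step of 3 against 4 libraries cannot go below an exact p of 0.0571. Steps between the time points with 4 libraries, added after the values were seen, can reach an exact p of 0.0286, and 14 of 18 such tests had an adjusted p of 0.0367. At T60 the log2 ratio of Fosb over Fos was 1.53 ± 0.526, against 0.669 ± 0.077 at T15 (SD, n = 4 each; exact permutation, adjusted p = 0.0367). At T120 it was 1.70 ± 0.174, against 1.53 ± 0.526 at T60 (SD, n = 4 each; exact permutation, adjusted p = 0.571).

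By these tests, chosen after the values were seen, Fosb and Fos differed in their change from T15 to T60 (by 0.86). From T60 to T120 a difference was not detectable (0.17). Fosl2 over Fos stood at 1.38 ± 0.274 at T120, against -0.776 ± 0.870 at T60 (SD, n = 4 each; exact permutation, adjusted p = 0.0367), so Fos lost 2.16 more than Fosl2 on the log2 scale. Fosl1 over Fos stood at 1.38 ± 0.532 at T120, against -4.69 ± 1.42 at T60 (SD, n = 4 each; exact permutation, adjusted p = 0.0367). Fosl1 over Fosl2 stood at -0.001 ± 0.361 at T120, against -3.91 ± 0.610 at T60 (SD, n = 4 each; exact permutation, adjusted p = 0.0367). The 4 tests that did not pass were Fosb over Fos at T15 against T0 (adjusted p = 0.0908, exact permutation) and at T120 against T60, and Fosl1 over Fosl2 at T15 against T0 (adjusted p = 0.0908, exact permutation) and at T60 against T15 (adjusted p = 0.0686, exact permutation).

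**Figure D4:**
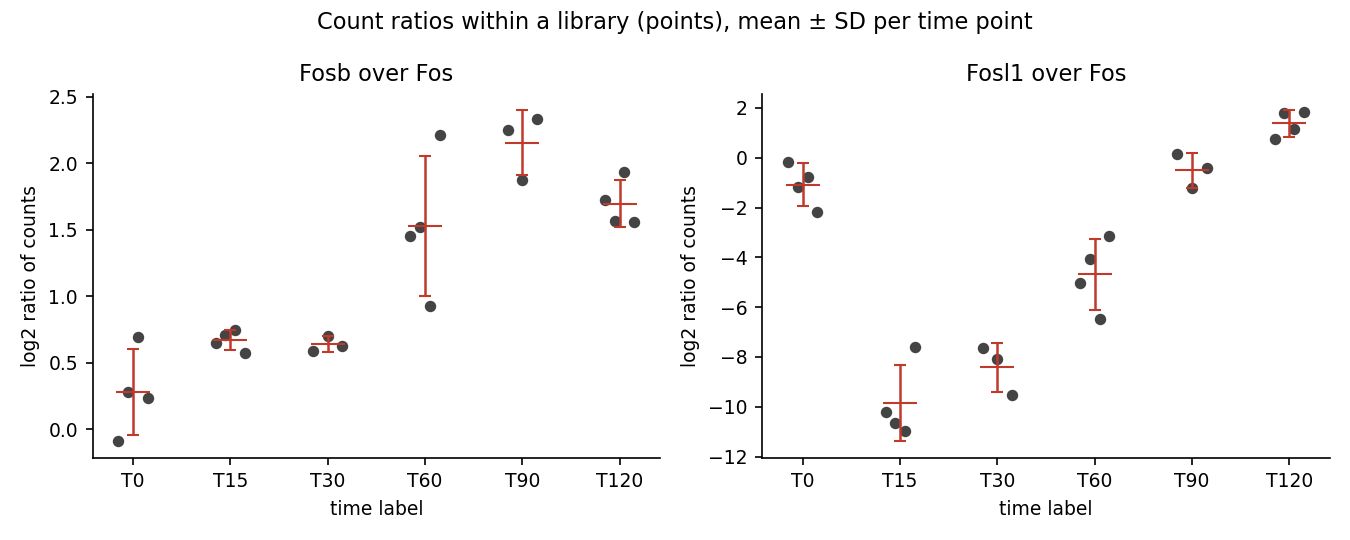
Log2 ratio of the counts of Fosb to Fos (left) and of Fosl1 to Fos (right) in each library (points), with mean ± SD per time point in red. Fosb over Fos is alike at T15 and T30 and higher from T60 on, and Fosl1 over Fos is lowest at T15 and climbs to above 0 in every library at T120.

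Within T60 the libraries differed in the balance of the members. Library 60C had the highest Fos (3205 CPM) and the lowest Fosl1 (35.8 CPM) and Fosl2 (944 CPM), and library 60D had the lowest Fos (921 CPM) and the highest Fosl1 (103 CPM). Fosb over Fos was lowest in 60C (1.90) and highest in 60D (4.63) of the 4. T120 did not share this pattern, with the highest Fos (472 CPM) and the highest Fosl1 (788 CPM) both in 120A. The sources used here do not say whether these libraries were handled alike.

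Over the 22 libraries, which share the 6 time points, log2 levels of Fos and Fosb ran together (Pearson r = 0.979, Spearman rho = 0.894), and so did those of Fosl1 and Fosl2 (0.82 and 0.68). Fos and Fosl1 did not (0.131 and -0.163). Fosb and Fosl2 had 0.68 and 0.658, a rank correlation near that of Fosl1 and Fosl2. Fos and Fosl2 had 0.538 and 0.359, and Fosb and Fosl1 had 0.303 and 0.083. The listed genes most like Fos in this measure were Ier2 (r = 0.983), Gm37352 and Egr1 (both 0.974), Junb (0.97) and Btg2 (0.958). Those most like Fosb were Junb (0.995), Egr1 (0.99), Jund and the nuclear receptor gene Nr4a1 (both 0.965) and Socs3 (0.962).

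Fosl1 was most like Ube2f (0.992), a NEDD8-conjugating enzyme gene, the fibronectin receptor gene Itga5 (0.99), the hexokinase gene Hk2 (0.989), and Srxn1 and the copper transporter gene Slc31a1 (both 0.986). Fosl2 was most like the small MAF gene Mafk (0.993), Coq10b (0.986), the co-chaperone gene Dnajb4 (0.985), and Gem and Midn (both 0.984). By Spearman rho, 3 of the 5 genes for Fos, 1 of 5 for Fosl1 and 2 of 5 for Fosl2 were again among the first 5.

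Of the AP-1 partner genes 15 of 18 were listed. At T15 5 were called up and 0 down, at T30 7 and 0, at T60 12 and 2, at T90 12 and 1, and at T120 11 and 1, with a median log2 fold change of 0.19 at T15 and 1.56 at T120 (all genes 0.005 and -0.08). Of all genes 0.67%, 5%, 56.2%, 68.8% and 76.8% were called at these times. The 5 at T15 were Junb (5.25 ± 0.29), Jun (4.44 ± 0.36), Jund (3.04), Atf3 (2.65) and Atf4 (0.79), with adjusted p between 7.20e-11 for Junb and 0.00165 for Atf4. At T120 against T0 Atf3, a stress-induced repressor and activator, stood at 5.02 ± 0.37, Junb at 4.77 ± 0.29, Jund at 2.59 ± 0.20 and Jun at 1.77 ± 0.33. Maff (3.24 ± 0.28), Mafk (2.94 ± 0.18) and the stress response factor gene Atf4 (2.92 ± 0.14) were also called up there, with adjusted p between 6.79e-13 for Atf4 and 5.10e-05 for Jun over these 7.

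Genes listed as regulators of the Fos promoter, 11 of 14 in the table, had 0 called at T15 and 1 at T30, Srf (1.16; adjusted p = 7.89e-07), the gene of serum response factor. For this list and the next, 0.67% of all genes were called at T15, 5% at T30 and 76.8% at T120. At T120 7 were up and 4 down. Stat3 (3.65 ± 0.19), Elk4 (1.57 ± 0.12), Srf (0.93 ± 0.11), Crebbp (0.92 ± 0.13) and Ep300 (0.89 ± 0.15) were up and Mkl2 (-0.91 ± 0.13) was down, with adjusted p between 1.30e-12 for Stat3 and 2.01e-05 for Ep300. Of the MAP kinase genes upstream, 15 of 18 listed, 0 were called at T15 or T30, and 9 were up and 5 down at T120. The p38-activating kinase gene Map2k3 stood at 4.18 ± 0.17, Rps6ka3 at 2.49 ± 0.16, Map2k4 at 1.17 ± 0.11, Braf at 0.85 ± 0.10 and Map2k1 at 0.66 ± 0.13, against -1.31 ± 0.14 for Mapk9, a JNK gene. Adjusted p for these ran between 9.86e-14 for Map2k3 and 0.000121 for Map2k1.

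All 15 genes for AU-rich element binding and mRNA decay were listed, with 2 up and 0 down at T15 and 13 up and 2 down at T120 (median 0.85). Zfp36, whose protein promotes decay of AU-rich mRNAs, was up by 3.46 at T15 (adjusted p = 5.01e-10) and by 4.42 ± 0.23 at T120, and Zfp36l1 by 1.28 at T15 (adjusted p = 2.25e-05). At T120 Zfp36l2 (1.76 ± 0.27), the HuR gene Elavl1 (1.34 ± 0.08) and Pum2 (1.14 ± 0.13) were up and Tia1 (-2.61 ± 0.20) was down, with adjusted p between 1.32e-12 for Zfp36 and 5.39e-06 for Zfp36l2. Genes for FOS protein turnover and modification, 8 of 10 listed, had 0 called at T15 and T30 and 6 up and 1 down at T120. The share of all genes called was 0.67% at T15, 5% at T30 and 76.8% at T120. The ubiquitin-conjugating enzyme gene Cdc34 (1.68) was among those up and the chaperone-linked ligase gene Stub1 (-0.45) was down.

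Known AP-1 target genes, 12 of 25 listed, had 0 called at T15, 2 up at T30, 9 up at T60, 10 up at T90, and 9 up and 1 down at T120, with medians of 0.04, 0.51, 1.29, 2.29 and 2.54. The share called among all genes, given above for these 5 times, grew from T15 to T120 as well. The 2 at T30 were Mt2 (1.15; adjusted p = 0.000684), a metallothionein gene, and Vegfa (0.91; adjusted p = 0.000117). At T120 the haem oxygenase gene Hmox1 stood at 6.25 ± 0.51, the urokinase receptor gene Plaur at 3.97 ± 0.41, Cd44 at 3.53 ± 0.19, Hbegf at 3.20 ± 0.35, Mt2 at 3.07 ± 0.19 and Itga5 at 2.60 ± 0.21. Adjusted p for these ran between 1.55e-12 for Cd44 and 5.51e-08 for Hbegf. Ccnd1, the cyclin D1 gene, was the one called down (-1.14 ± 0.31; adjusted p = 0.00241). These list counts at T120 stand beside the 76.8% of all genes called there, and binding of FOS proteins to these genes was not measured.

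The authors' deposited table gave the same direction as the edgeR fit for all 40 comparisons of the members and the same call at 0.05 for 37, with log2 fold changes within 0.24. The authors' deposited table calls 3 that edgeR did not: Fosl2 at T15 against T0 (0.78; adjusted p 0.00553), and at T30 against T15 Fosb (0.961; adjusted p 0.00731) and Fosl1 (2.518; adjusted p 0.00909).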

How the data were processed

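Bulk RNA-seq of muscle stem cells was read as 65-base single reads from stranded total RNA libraries, per the labels' protocols. The deposited table gives raw counts for 22 libraries with Ensembl gene identifiers, per the file headers. Per the submitters' processing notes the series used cutadapt 1.11, featureCounts 1.4.5-p3, DESeq2 1.18.1 and build mm10, with no role or order. For single-cell data the list adds Cell Ranger 3.0.2 and Seurat 3.0.2. The sources used here do not give aligner, annotation or strand setting. The authors also deposited counts divided by a size factor and rounded (a score, matched within 0.5), log2 fold changes and adjusted p-values. No single-library column was left unmatched (0), 32 other columns were not used, and 9 of the 15 samples were not analysed here. The lowest mean normalized count listed is 98.36, so weakly expressed genes are outside the table, and column totals are not sequencing depth. Of the identifiers, 8049 matched GENCODE vM21.

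Counts were tested with edgeR 4.0.16 (R 4.3.3): TMM factors, quasi-likelihood F test, all 22 libraries, Benjamini-Hochberg over 8059 genes, called under 0.05. SE is the absolute log2 fold change divided by √F. TMM takes most genes as unchanged, so a shift shared by most genes cannot be seen. Ratios used log2 counts with 0.5 added. Background was the median count per kb over 10 genes with at least 20 kb of exon and under 0.3 CPM per kb from T60 on. Likeness was Pearson r of log2 CPM (prior count 2). Alternatives used DESeq2 1.42.0, limma 3.58.1, other scalings, background subtraction, a block by library letter, fits of T30 to T120 alone and left-out libraries. Same-letter libraries deviated together (every r over 0.1) at T60 against T30 (0.124 to 0.301) and T90 against T60 (0.178 to 0.235). So they did at T120 against T90 (0.17 to 0.305) and T120 against T60 (0.195 to 0.467). Letters may thus pair libraries there, which is read from the data and not the labels. The main fit and the permutation tests nevertheless took all libraries as unpaired, and letters were a block only in the alternatives. In the comparisons with T0 or T15 not every r was over 0.1. The edgeR script was tested on simulated data. The named genes were the members, the 5 genes most like each, the JUN genes and Atf3, and up to 6 called genes per list with the largest change at T120. Some genes that this rule picks are not reported here. Ccnd1, Zfp36l1 and Vegfa were named after their values were seen. The members and lists were chosen with earlier results of these data known.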

Additional observations from a re-analysis of the deposited data

Results flagged for a closer look

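Of 16 sets of 4 libraries (each member at each time point with 4 libraries), 1 had a library far from its others, and chance gives about 1 in 20. Fosl1 at T15 was 5.325 CPM in library 15D, against 0.632 to 1.08 CPM in the other 3 libraries, and the gap took 0.905 of the whole range (above the critical value of Dixon's test). The same library had the highest background of the T15 libraries, at 2.93 CPM per kb against 0.363 to 0.624 in the others. Its Fosl1 count of 30 stood beside 28.9 counts expected from the background over the Fosl1 exons, a ratio of 1.04.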

How the results depend on the processing

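Of the 728 recomputed log2 fold changes of the members, 687 kept their direction and their side of the threshold, among them all against T0 except Fosl2 at T15. That value was 0.7875 by DESeq2 and 0.7797 with only the 2 time points, both called, and ran from 0.6963 to 0.8603 with 1 library left out. At T30 against T15 Fosl1 was called with library totals (2.3893), by DESeq2 (2.2222), with a replicate block by library letter (2.3136; adjusted p = 0.0479) and with the background subtracted (5.7053, a value that depends on the prior count), and ran from 1.7604 to 3.3557 with 1 library left out. Fos was called there with only the 2 time points (1.0574) and with the background subtracted (1.4737), Fosb with the background subtracted (1.4353). Fosl2 was not called there without the 5 libraries of highest background (0.7593; T30 then has 1 library, assumed to vary like the rest), and ran from 0.7541 to 1.1307 with 1 library left out. At T60 against T30, background subtraction gave Fos -0.9026 (called) and turned Fosb to -0.1283, and the block with only T30 to T120 gave Fosb 0.6073 (called). Fosl2 at T90 against T60 was -0.038 with library totals, -0.0154 with the block and only T30 to T120, and ran from -0.0457 (without 60C) to 0.1147. At T120 against T90 Fos was not called with DESeq2's size factors (-0.9381), the authors' factors (-0.972), library totals (-0.9712), DESeq2 (-0.9379), the 2 time points alone (-0.9465), the background subtracted (-0.9142), only T30 to T120 (-0.9436 without and -0.7778 with the replicate block) or without the 5 libraries (-0.9464), and ran from -1.2858 to -0.6997 with 1 left out. Fosl2 was not called there with the 2 time points alone (-0.6832) and ran from -0.8257 to -0.5572, while Fosl1 was called with the 2 time points alone (0.8397) and without the 5 libraries (0.8398). The cause was not tested. Ratios with the background subtracted passed for Fosb over Fos at T15 against T0 (4.544) and for Fosl1 over Fosl2 at T60 against T15 (6.407). Fosb over Fos at T120 against T60 ran from -0.032 (without 60C) to 0.396. Fosl2 over Fos at T30 against T15 ran from -0.255 to 0.01 (without 15B), and Fosl2 over Fosb there from -0.25 to 0.037 (without 30B; 0.027 without 15B). The share of Fos at T30 was 52.45% per longest transcript and 37.45% without length, that of Fosl1 at T120 27.93% without length. Genes called numbered 403 at T30 against T0 (147 without the 5 libraries, 787 with the background subtracted). At T30 against T15 they numbered 394 (69 without the 5 libraries, 98 with the 2 time points alone, 260 by limma-voom, 647 by DESeq2, 1140 without 15D). At T60 against T30 they numbered 4111 (1619 without the 5 libraries), at T90 against T60 2441 (1621 without 90A) and at T120 against T90 1851 (793 with the 2 time points alone). Library totals moved the median of all genes at T60 against T0 to -0.35, with 24.7% of calls upward in place of 49.7%, and at T120 to -0.46, with 33% in place of 48.5%. At T30 the authors' factors gave 91.4% of calls upward in place of 73.2%. Fits of T30 to T120 alone were chosen after seeing the data. The replicate block changed no other member's call. In the 4 comparisons where same-letter libraries deviated together, it moved no count of calls by over 1.5 times.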
